A study of Rattus norvegicus with 47 samples.

Results

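Exposure to the scent of a predator was compared with no exposure in whole blood of female and male rats, and the genes described here are those that differed from controls in the same direction in both sexes. Of 9416 probes tested, 465 (4.94%) passed in a joint test, 297 of them higher (3.15%) and 168 lower (1.78%), and 448 (4.76%) met this rule. They had a Benjamini-Hochberg adjusted p below 0.05 in a limma model with the cohort as a block, and the same sign in each cohort. Of these, 283 were higher and 165 lower in exposed rats, and they stood for 345 distinct gene symbols. A stricter tier of 164 probes (1.74%), 99 higher and 65 lower, also had an unadjusted p below 0.05 within each cohort. The higher genes included Rgs18, a brake on G-protein signalling in platelets, and Sod2, the mitochondrial superoxide dismutase. The lower genes included the immediate early transcription factor gene Fos and S100a6, which encodes a small calcium-binding protein. Without 4 female control arrays that stood apart (below), the female differences (log2) of Rgs18, Sod2, Fos and S100a6 were 0.26, −0.17, 0.06 and −1.20. The 12 genes in each direction of that tier whose smaller cohort difference was largest are called the leading genes, and Rgs18 and Fos came first among them.

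Predator scent is used in rodents as a model of traumatic stress without physical harm. A threat of this kind is known to raise adrenal glucocorticoids and catecholamines, which act on circulating cells and change how many of each type are in the blood. Whole blood RNA comes from neutrophils, monocytes, lymphocytes, platelets and young red cells together. A lower level can therefore mean fewer cells of a type or less RNA per cell, and these cannot be told apart in such samples.

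All animals were adult Sprague Dawley rats with no allele or agent named in the labels, and each array's label names 1 rat. Exposed rats had been put by the submitters into a minimal or an extreme behavioural response class, and controls were behaviourally tested but not exposed. The arrays used were of 8 minimal response, 8 extreme response and 6 control females, and of 8 minimal response, 8 extreme response and 8 control males. That is 32 exposed and 14 control arrays, 46 of the 47 in the series. The array of the remaining female control had no usable signal, with a highest intensity of 83.2. The female and male rats were numbered in separate cohorts, so sex and cohort cannot be told apart. In the female cohort the label numbers of minimal response, extreme response and control rats fell in 3 separate ranges, so group and the order of the animals cannot be told apart there. In the male cohort, 6 rat numbers each label an exposed array (4 of minimal and 2 of extreme response) and a control array, and the labels do not say whether these are the same animals. Without those 6 exposed males, 172 higher and 59 lower shared probes were called, and 61 and 30 in the stricter tier. Exposure then passed for 1 probe in males by themselves (10 exposed and 8 control arrays) and for 551 in females, and 22 of the 24 leading genes still passed over both cohorts, all but Clec7a and Gtf2f1. The dose, duration and timing of the scent, the days between exposure and bleeding, and the class boundaries were not given in the sources used here.

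Detection covered 5921 to 8770 probes per array, out of 22523 on the array. Of the 6 female controls, replicates 1, 3, 4 and 5 stood apart from replicates 6 and 7. The summed level of the 12 tested platelet markers was 36496 to 74001 in exposed females, against 6260 to 18489 in those 4 and 42288 and 46720 in the other 2. In males it was 20680 to 55485 in exposed rats and 30947 to 59857 in controls. The mean log2 level of 14 immediate early genes was 5.78 to 6.33 in exposed females, against 6.97 to 7.25 in those 4 controls and 6.20 and 6.26 in the other 2. Female differences are therefore also given without those 4 arrays, and then rest on 2 control rats. Genes that define leukocyte, erythroid and platelet cells were detected, while Ltf, Pax5, Tbx21, Treml1 and Fcer1a were detected on no array.

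The exposure differences of the cohorts were mostly not alike. Exposure passed the test for 538 probes (5.71%) in females, with 375 higher (3.98%) and 163 lower (1.73%). In males it passed for 961 probes (10.2%), with 525 higher (5.58%) and 436 lower (4.63%). Over all 9416 probes the female and male differences had the same sign for 4330 (46.0%), and their Pearson correlation across probes was −0.11. Probes are not independent replicates, so this value describes the arrays only. The difference between the cohorts itself passed for 975 probes (10.4%). Both cohorts called 59 probes, of which 33 went opposite ways and 26 (0.276%) the same way. The 26 were 4.83% of the female calls and 2.71% of the male calls. Within the shared set, 77 of 448 probes (17.2%) also differed in size between the cohorts, and 4 of the 164 in the stricter tier did.

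**Figure D1:**
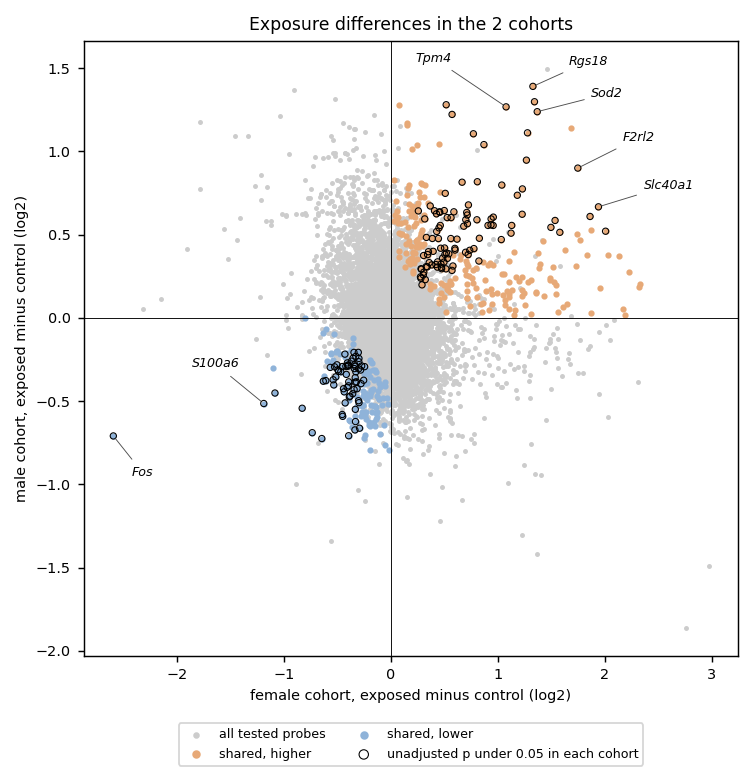
Exposed minus control differences (log2) of 9416 probes in the female cohort (horizontal, 16 exposed and 6 control rats) and the male cohort (vertical, 16 exposed and 8 control rats). Shared probes fill the upper right (283 higher) and lower left (165 lower) corners, while the grey cloud of all probes has no slope along the diagonal (r = −0.11).

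Platelet markers were the list with the highest share of shared genes. Of 12 tested, 7 (58.3%) were higher in both cohorts and 0 lower, beside 3.07% higher and 2.05% lower of all 6673 symbols tested. The other 5 had opposite signs in the cohorts. Within females, 11 of the 12 passed as higher, beside 247 of the 6673 symbols. Within males 1 of the 12 did, beside 416 of the 6673. The 7 were Rgs18, F2rl2, Ppbp, Slc6a4, Gp5, Alox12 and P2ry12. The size in each cohort was unlike for most: the list's median difference was 1.74 in females and 0.04 in males, and 0.09 in females without control replicates 1, 3, 4 and 5. Beside these, all symbols had medians of −0.01 in females and −0.01 in males. Rgs18 and F2rl2 were the only 2 of the 7 in the 12 leading higher genes.

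In females, Rgs18 had log2 intensities of 6.89, 7.46 and 8.55 (lowest, median, highest) at minimal response, 5.88, 7.11 and 8.02 at extreme response and 4.48, 6.13 and 7.17 in controls. Male Rgs18 levels were 6.26, 6.53 and 7.16 at minimal response, 4.52, 6.32 and 6.69 at extreme response and 4.41, 4.88 and 5.26 in controls. No male of minimal response overlapped the male controls, while male extreme response replicates 1, 2 and 8 lay inside the control range. Rgs18, on chromosome 13, was 2.57-fold higher in exposed rats (log2 difference 1.36 ± 0.23 SE, adjusted p = 0.000293, n = 32 exposed and 14 control). The difference was 1.33 in females and 1.39 in males, and above the control mean in 15 of 16 exposed females and 14 of 16 exposed males. The Rgs18 probe was above background on all exposed females and 4 of 6 female controls, and on 8 of 8 males of minimal response, 6 of 8 of extreme response and 4 of 8 male controls, so part of the fold rests on dim arrays. Without female controls 1, 3, 4 and 5 the female difference was 0.26 ± 0.48.

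F2rl2 ran at 8.03, 8.68 and 9.36 in females of minimal response, 6.78, 7.66 and 8.70 at extreme response and 5.17, 6.12 and 8.06 in female controls. Male F2rl2 levels were 7.48, 8.03 and 8.52 at minimal response, 5.63, 7.18 and 7.82 at extreme response and 5.90, 6.46 and 7.49 in controls. F2rl2 encodes a thrombin-activated receptor that in mouse platelets assists thrombin signalling. It was 2.43-fold higher in exposed rats (1.28 ± 0.25, adjusted p = 0.00151), by 1.75 in females and 0.90 in males, and by 0.36 in females without the 4 controls. The minimal response and control ranges met only at their edges in each cohort, and the extreme response ranges overlapped those of the controls. Ppbp, the gene of platelet basic protein, rose by 1.17 ± 0.24 (adjusted p = 0.00201), 1.86 in females and 0.61 in males. Slc6a4, the serotonin transporter that fills platelets with serotonin, rose by 1.16 ± 0.27 (adjusted p = 0.00741), but by 2.33 in females and 0.20 in males, and the cohorts differed (adjusted p = 0.00219). Without the 4 controls the female difference was 0.14 for Ppbp and 0.33 for Slc6a4. Gp5, Alox12 and P2ry12 had male differences of 0.03, 0.05 and 0.23, against 1.88, 2.17 and 1.49 in females. Their shared sign therefore rested on small male values.

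The promoters of Rgs18 and F2rl2 are shown because these 2 platelet genes rose together in both cohorts. The windows hold 250 bases before the gene's start and 50 bases from it, and come from RefSeq on GRCr8, written 5′ to 3′ on the gene's strand. Rgs18 lies at chr13:59066293-59066592, minus strand, and F2rl2 at chr2:28706516-28706815, plus strand. Capitals mark matches to 6 short motifs searched on both strands: AGATAA (known for GATA factors), CCGGAA (ETS), GGGNNTTCC (NF-kB), TGANTCA (AP-1), AGAACA (glucocorticoid half-site) and TGACGT (CRE half-site), none of which overlaps another here.
Rgs18: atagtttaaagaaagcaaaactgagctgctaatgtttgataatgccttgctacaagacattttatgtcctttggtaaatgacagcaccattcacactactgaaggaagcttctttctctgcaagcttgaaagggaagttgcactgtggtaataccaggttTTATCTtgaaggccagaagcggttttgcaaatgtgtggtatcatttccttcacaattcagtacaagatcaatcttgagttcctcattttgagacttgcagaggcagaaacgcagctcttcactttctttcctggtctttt
F2rl2: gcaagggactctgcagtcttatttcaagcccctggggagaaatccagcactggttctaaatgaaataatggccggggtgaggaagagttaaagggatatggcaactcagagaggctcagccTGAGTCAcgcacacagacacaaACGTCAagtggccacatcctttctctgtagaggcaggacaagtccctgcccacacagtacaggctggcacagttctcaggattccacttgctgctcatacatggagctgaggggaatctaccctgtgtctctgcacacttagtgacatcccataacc
Rgs18 held 1 GATA match, read as TTATCT, at position −90 from its start. F2rl2 held an AP-1 match at −129 and a CRE half-site, read as ACGTCA, at −107. AGATAA stood in 6.78% of the 5618 tested symbols with a promoter and in 6.36% of 173 shared higher ones. TGANTCA stood in 5.36% and 6.94%, and TGACGT in 11.9% and 15.6%. A match is a description of letters, not a site or a cause.

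Sod2, which turns superoxide into hydrogen peroxide in mitochondria, belonged to the 18 antioxidant and redox enzymes tested, of which 3 (16.7%) were higher in both cohorts and 0 lower. In females, Sod2 had log2 intensities of 9.13, 9.67 and 9.88 (lowest, median, highest) at minimal response, 7.83, 8.63 and 9.39 at extreme response and 5.96, 7.73 and 9.64 in controls. Male Sod2 levels were 8.33, 8.93 and 9.82 at minimal response, 6.39, 8.41 and 9.52 at extreme response and 6.81, 7.08 and 8.18 in controls. The exposed and control ranges overlapped in females, where control replicate 6 had 9.64, and male minimal response did not overlap male controls. Sod2 was 2.46-fold higher (1.30 ± 0.26, adjusted p = 0.00166), by 1.37 in females and 1.24 in males. Without the 4 female controls the female difference was −0.17, and with the levels of 7 cell type marker lists as covariates the difference over both cohorts was 0.68 (adjusted p = 0.0577).

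Gsr, glutathione reductase, rose by 0.94 ± 0.17 (adjusted p = 0.00051), with 0.52 in females and 1.28 in males. Its male levels were 6.78, 7.38 and 7.79 at minimal response, 5.71, 6.90 and 7.89 at extreme response and 4.80, 5.65 and 6.46 in controls, so minimal response and control males did not overlap. Prdx3, a mitochondrial peroxidase, rose by 0.54 ± 0.11 (adjusted p = 0.0021), with 0.37 in females and 0.67 in males. Without the 4 controls the female difference was 0.02 for Gsr and 0.03 for Prdx3. The list's median was −0.06 in females and 0.06 in males, close to that of all symbols.

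The other leading higher genes had roles in the cytoskeleton, membranes, iron and signalling. Tpm4, a tropomyosin that stabilises actin filaments in platelets and other cells, had levels of 9.60, 10.11 and 10.32 in females of minimal response, 9.20, 9.62 and 9.81 at extreme response and 7.71, 8.58 and 9.90 in female controls. In males it had 9.91, 10.31 and 10.70 at minimal response, 7.97, 9.43 and 10.33 at extreme response and 7.80, 8.36 and 9.44 in controls. Every male of minimal response was above every male control, and extreme response males spanned both. Tpm4 was 2.27-fold higher (1.18 ± 0.20, adjusted p = 0.000293), by 1.08 in females and 1.27 in males.

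Tax1bp1 ran at 11.93, 12.32 and 12.67 in females of minimal response, 11.70, 11.99 and 12.45 at extreme response and 11.05, 11.42 and 12.00 in female controls. Male Tax1bp1 levels were 11.89, 12.19 and 12.47 at minimal response, 11.20, 11.93 and 12.39 at extreme response and 10.78, 11.19 and 11.64 in controls. Tax1bp1 encodes an autophagy receptor that limits NF-kB signalling, and it had the smallest p of the shared genes. The rise was 1.68-fold (0.75 ± 0.10, adjusted p = 2.33e-05), with 0.67 in females and 0.81 in males. Minimal response and control males did not overlap, and 16 of 16 exposed females and 15 of 16 exposed males were above their control mean. The female difference without the 4 controls was 0.20 ± 0.23, and the call over both cohorts remained (adjusted p = 0.00322).

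Rtn4, a protein that shapes the endoplasmic reticulum, had male levels of 9.08, 9.35 and 10.07 at minimal response, 7.11, 9.00 and 9.38 at extreme response and 7.55, 7.69 and 8.66 in controls. Minimal response and control males did not overlap. It rose by 0.96 ± 0.18 (adjusted p = 0.000987). Kcnab1, a subunit of voltage-gated potassium channels, rose by 0.96 ± 0.15 (adjusted p = 0.00027) and was above the control mean in 15 of 16 exposed females and 16 of 16 exposed males, though detected in only 4 of 6 female and 2 of 8 male controls. Tspan12, a tetraspanin, was detected in 0 of 8 male controls and 12 of 16 exposed males. Its measured male difference was 0.80 (adjusted p = 0.0352), from control values below detection. Set against the lowest detected signal of each control array, the mean of all 16 exposed males was 1.40-fold higher. That mean includes exposed arrays below detection, so it gives no strict lower bound, and it was not tested.

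Slc40a1, the iron exporter ferroportin, rose by 1.24 ± 0.22 (adjusted p = 0.00051), but the cohorts differed, with 1.94 in females and 0.67 in males (adjusted p of the difference 0.0354). Its female difference was 0.09 without the 4 controls. Sav1, a scaffold of the Hippo kinase pathway, rose by 0.81 ± 0.17 (adjusted p = 0.0026), with 0.81 in females and 0.82 in males. Alg6, a glucosyltransferase of N-glycan assembly, and Nck2, an adaptor that links receptors to actin, rose by 1.32 ± 0.21 and 1.19 ± 0.23. Each has another, dimmer probe that did not pass, at −0.15 (adjusted p = 0.289) for Alg6 and −0.03 (adjusted p = 0.887) for Nck2, so their calls hold for 1 probe only. The Alg6 probe that passed was above background in only 3 of 6 female and 4 of 8 male controls, and that of Sav1 in 5 of 6 and 4 of 8. Without the 4 controls, the female differences of Tpm4, Kcnab1, Rtn4, Nck2, Alg6 and Sav1 were 0.04, 0.05, 0.10, 0.15, 0.12 and 0.40, and that of Tspan12 was −0.12.

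**Figure D2:**
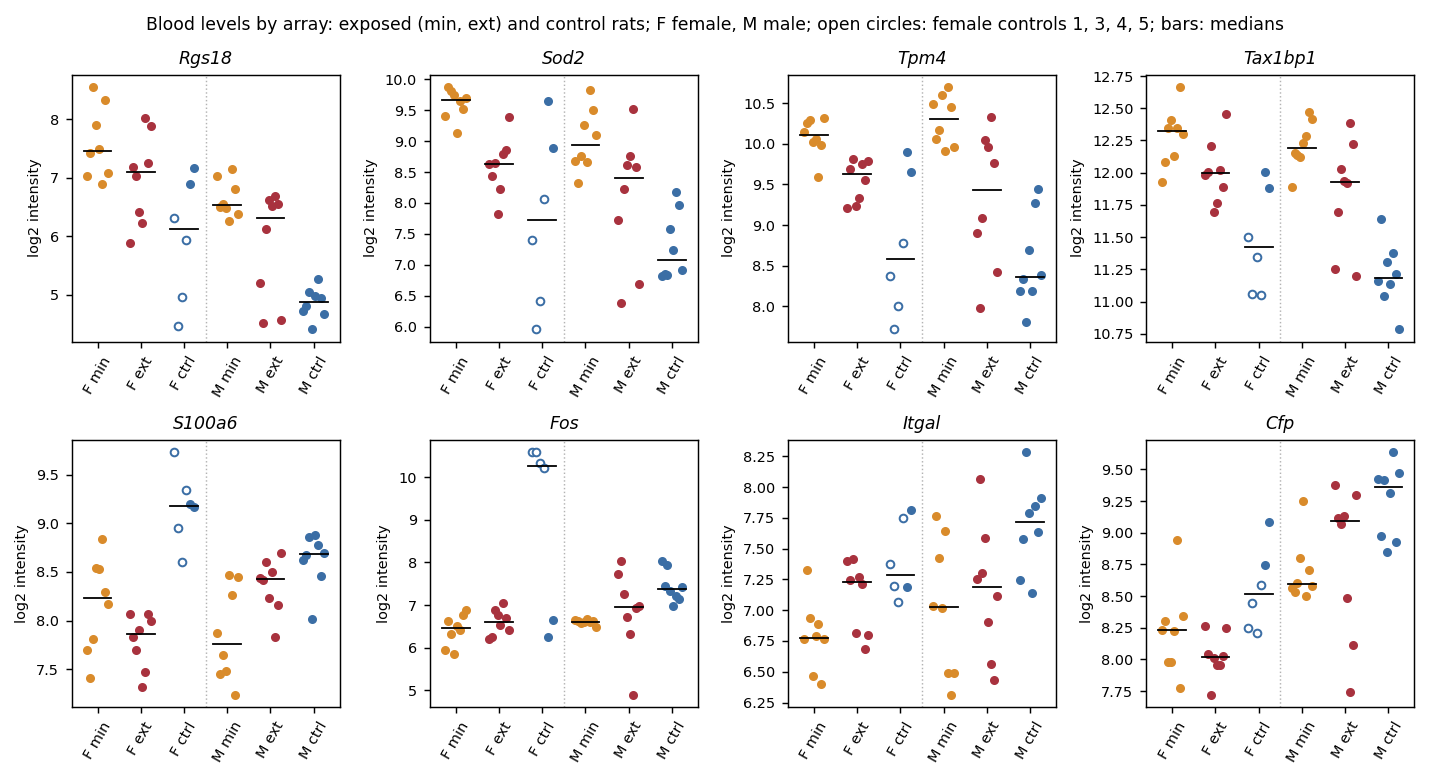
Log2 intensity of 8 genes on each of 46 arrays, by cohort and group, with a bar at each group's median and open circles for female controls 1, 3, 4 and 5. In the upper row the males of minimal response lie above the male controls (for Rgs18 from 6.26 against at most 5.26), while the open circles are the low female controls. In the lower row all 6 female controls of S100a6 lie at 8.60 or above and 1 of 16 exposed females does, and Fos is above 10 in the 4 open circles only.

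Nearest to Rgs18 by correlation of residuals after group means over 46 arrays were Tspan12 (r = 0.81), Rab11a (0.80) and Sod2 (0.76). Nearest to Tax1bp1 were Chchd3 (0.80), Fnbp1l (0.68) and Smim3 (0.67). Nearest to S100a6 were Rps14 (0.74), S100a4 (0.72) and Rpl41 (0.68). These arrays share animals, amplification and hybridisation, so the values describe likeness only.

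Of the 26 probes that passed in each cohort by themselves, 24 were higher and 2 lower, and 18 had a symbol. Beside 9 of the leading genes above and the lower Rab43 and S100a6, these symbols included 7 further genes. Ywhah, a 14-3-3 adaptor protein gene, rose by 0.81 ± 0.14, Leprot, which regulates surface receptors, by 0.76 ± 0.15, and Skap2, an adaptor of leukocyte adhesion, by 0.73 ± 0.13. Smim3 rose by 0.69 ± 0.12, Bicd2, a dynein adaptor, by 0.61 ± 0.12, Wdr1, which helps to take actin filaments apart, by 0.57 ± 0.10, and Pygl, glycogen phosphorylase of liver type, by 0.42 ± 0.09. For these 7 the adjusted p over both cohorts ran from 0.000411 to 0.00327. Their female differences without the 4 controls lay between −0.10 and 0.16.

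Of the 14 immediate early genes tested, 0 were higher and 2 (14.3%) were lower in both cohorts, namely Fos and Ier2. The list as a whole was not alike in the cohorts, with the same sign for 4 of 14. Its median was −0.45 in females, 0.05 in males and −0.16 in females without control replicates 1, 3, 4 and 5. In females, Fos had log2 intensities of 5.86, 6.46 and 6.88 (lowest, median, highest) at minimal response, 6.20, 6.61 and 7.06 at extreme response and 6.25, 10.26 and 10.59 in controls. Male Fos levels were 6.48, 6.61 and 6.68 at minimal response, 4.90, 6.95 and 8.04 at extreme response and 6.99, 7.38 and 8.04 in controls. The high female values were those of control replicates 1, 3, 4 and 5, at 10.21 to 10.59, while control replicates 6 and 7 had 6.25 and 6.65, inside the exposed range. All 8 males of minimal response lay below all 8 male controls. Fos was 2.94-fold lower (−1.56 ± 0.29, adjusted p = 0.000853), with −2.59 in females and −0.71 in males, and the cohorts differed (adjusted p = 0.0137). Without the 4 controls the female difference was 0.06 and the call over both cohorts was lost (−0.52, adjusted p = 0.0734).

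Ier2, another early-response gene, fell by 0.74 ± 0.14 (adjusted p = 0.0014), with −1.08 in females and −0.45 in males, and with −0.54 in females without the 4 controls. Junb and Egr1 passed over both cohorts but had opposite signs, with −2.14 and −2.32 in females and 0.11 and 0.05 in males. They are therefore not among the shared genes.

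S100a6, a calcium sensor of the S100 family on chromosome 2, was lower in both cohorts with and without those 4 arrays. In females, S100a6 had log2 intensities of 7.41, 8.23 and 8.84 (lowest, median, highest) at minimal response, 7.32, 7.87 and 8.07 at extreme response and 8.60, 9.18 and 9.73 in controls. Male S100a6 levels were 7.24, 7.76 and 8.46 at minimal response, 7.83, 8.43 and 8.70 at extreme response and 8.01, 8.68 and 8.88 in controls. Exposed and control females overlapped by 1 minimal response rat only in the range from 8.60 to 8.84, and the male groups overlapped. S100a6 was 1.76-fold lower (−0.82 ± 0.14, adjusted p = 0.000293), with −1.19 in females and −0.51 in males, and below the control mean in 16 of 16 exposed females and 15 of 16 exposed males. Without the 4 controls the female difference was −1.20 ± 0.30. Of 8 genes tested under an S100 symbol, 0 were higher and 2 (25%) lower in both cohorts. The other, S100a4, a relative known from motile leukocytes, fell by 0.44 ± 0.12 (adjusted p = 0.0281), with −0.23 in females and −0.61 in males.

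Cfp encodes properdin, which stabilises the alternative pathway convertase of complement and is made by neutrophils and monocytes. Cfp ran at 7.77, 8.23 and 8.94 in females of minimal response, 7.72, 8.02 and 8.27 at extreme response and 8.21, 8.52 and 9.09 in female controls. Male Cfp levels were 8.50, 8.59 and 9.25 at minimal response, 7.74, 9.09 and 9.38 at extreme response and 8.85, 9.36 and 9.64 in controls. Both cohorts' ranges overlapped, and male extreme response spread most widely. Cfp was 1.39-fold lower (−0.47 ± 0.11, adjusted p = 0.00816), with −0.43 in females and −0.51 in males, and with −0.79 in females without the 4 controls. Scaled to each array's 75th percentile, the difference was −0.33 (adjusted p = 0.311).

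The promoters of S100a6 and Cfp are shown because the falls of both were at least as large in females without the 4 controls. They were read in the same way, S100a6 at chr2:178398287-178398586, plus strand, and Cfp at chrX:3715301-3715600, plus strand, with capitals marking the same 6 motifs.
S100a6: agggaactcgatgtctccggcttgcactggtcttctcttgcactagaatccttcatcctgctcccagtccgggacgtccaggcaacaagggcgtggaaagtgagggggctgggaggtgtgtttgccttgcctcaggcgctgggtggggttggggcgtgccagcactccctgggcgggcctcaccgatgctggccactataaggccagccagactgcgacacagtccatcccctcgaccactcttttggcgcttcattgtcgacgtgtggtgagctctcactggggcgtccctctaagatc
Cfp: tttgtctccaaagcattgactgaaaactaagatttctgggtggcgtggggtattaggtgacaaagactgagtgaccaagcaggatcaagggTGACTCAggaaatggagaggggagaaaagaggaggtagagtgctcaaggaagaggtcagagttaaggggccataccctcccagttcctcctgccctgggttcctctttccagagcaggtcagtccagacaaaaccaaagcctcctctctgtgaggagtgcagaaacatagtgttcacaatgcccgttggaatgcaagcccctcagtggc
The S100a6 window held none of the 6 motifs, which says only that those letters are not in it. Cfp held 1 AP-1 match, TGACTCA, at position −159 from its start, and TGANTCA stood in 5.26% of 114 shared lower symbols with a promoter.

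Other leading lower genes had roles in leukocyte adhesion, pattern recognition, heme breakdown and vesicle traffic. Itgal, the alpha chain of the leukocyte adhesion integrin LFA-1, had 6.40, 6.78 and 7.32 in females of minimal response, 6.68, 7.23 and 7.42 at extreme response and 7.07, 7.29 and 7.82 in controls. Male Itgal levels were 6.31, 7.03 and 7.77 at minimal response, 6.43, 7.18 and 8.06 at extreme response and 7.14, 7.71 and 8.28 in controls, and every pair of groups overlapped. Itgal fell by 0.53 ± 0.13 (adjusted p = 0.0103), with −0.45 in females and −0.59 in males, and −0.56 in females without the 4 controls. Clec7a, the fungal glucan receptor dectin-1, fell by 0.71 ± 0.18 (adjusted p = 0.0126). Blvra, biliverdin reductase of heme breakdown, fell by 0.67 ± 0.17 (adjusted p = 0.0112), and Rab43, a small GTPase of vesicle traffic, by 0.69 ± 0.13 (adjusted p = 0.000987). Without the 4 controls, the female differences of Clec7a, Blvra and Rab43 were −0.36, −0.57 and −0.13. The neutrophil, monocyte, T cell, B cell and natural killer cell lists had 0 shared members of 15, 7, 12, 11 and 9 tested.

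Pacsin2, which bends membranes in endocytosis, Gtf2f1, a general transcription factor subunit, and Kptn, a regulator of mTORC1, fell by 0.46, 0.44 and 0.44. Mrpl54, a protein of the mitochondrial ribosome, fell by 0.52 ± 0.10 (adjusted p = 0.0011), with −0.45 in females and −0.58 in males. Clec7a, Rab43, Blvra, Mrpl54, Itgal, Gtf2f1, Cfp and Kptn no longer passed when arrays were scaled to their 75th percentile, with differences of −0.53, −0.52, −0.51, −0.36, −0.37, −0.32, −0.33 and −0.28. That scaling gave 242 higher and 43 lower shared probes, so 84.9% were higher, beside 63.2% here.

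**Figure D3:**
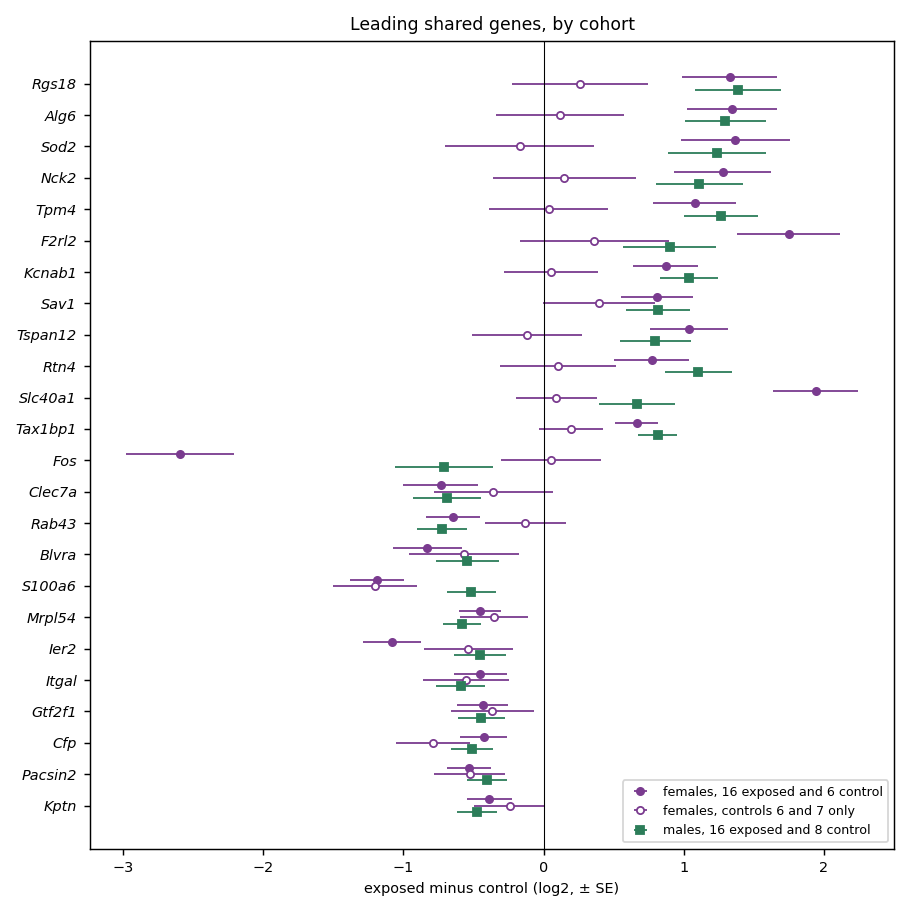
Exposed minus control differences (log2, bars are SE) of the 12 leading higher and 12 leading lower genes in females (filled circles), females with control replicates 6 and 7 only (open circles) and males (squares). The open circles of the higher genes lie between −0.17 and 0.40, and those of S100a6 and Cfp lie at −1.20 and −0.79.

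Leaving out female controls 1, 3, 4 and 5 gave 282 higher and 276 lower shared probes. Of the original members, 91 of 283 higher and 98 of 165 lower were among them. In the stricter tier, 13 were higher and 55 lower, and 6 and 17 of these were members of the tier with all arrays. The median female difference over the 99 stricter higher probes was 0.56 with all controls and 0.13 without the 4, beside 0.52 in males. Over the 65 stricter lower probes it was −0.39 with all controls and −0.35 without the 4, beside −0.37 in males. These medians describe probes that were chosen on these arrays. Of the leading genes, F2rl2, Tspan12, Fos, Clec7a, Blvra, Ier2 and Gtf2f1 no longer passed over both cohorts in this setting, with adjusted p of 0.0674, 0.0765, 0.0734, 0.0685, 0.0722, 0.055 and 0.0668, and the others did. Ppbp and Slc6a4 did not pass either, at 0.141 and 0.473. With the levels of the 7 cell type marker lists as covariates, the differences of Sod2, Tspan12, Slc40a1, Fos, Ier2, Blvra and Gtf2f1 over both cohorts were 0.68, 0.56, 0.38, −0.62, −0.47, −0.69 and −0.38, and none of these passed (adjusted p between 0.0504 and 0.114). The other leading genes passed, with smaller values of 0.84 for Rgs18, 0.80 for Alg6, 0.77 for Nck2 and 0.64 for F2rl2. Rgs18 and F2rl2 are themselves members of the platelet list used as a covariate. Part of their smaller values therefore follows from the setting itself.

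The higher genes in the stricter tier with and without the 4 controls were Tmem33, Ndfip2, Snx5, Chordc1 and Gfi1. Tmem33, a membrane protein of the endoplasmic reticulum, rose by 0.66 ± 0.15 (adjusted p = 0.00733) and by 0.74 in females without the 4. Gfi1, a transcriptional repressor needed for neutrophil formation, rose by 0.56 ± 0.12 (adjusted p = 0.00368). Snx5, a sorting nexin of endosomes, rose by 0.50 ± 0.12, Ndfip2, an adaptor of ubiquitin ligases, by 0.44 ± 0.11, and Chordc1, a cochaperone of Hsp90, by 0.36 ± 0.10.

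The lower genes in both versions of that tier included S100a6, Cfp and Pacsin2 among those above and 11 more named here. Irf5, a transcription factor of myeloid and B cells, fell by 0.48 ± 0.13 (adjusted p = 0.0185), and Tnfsf13, the B cell survival factor APRIL, by 0.43 ± 0.11 (adjusted p = 0.0188). The class I myosins of blood cells Myo1f and Myo1g fell by 0.35 and 0.37, with −0.80 and −0.72 in females without the 4. Smarca4, the ATPase of SWI/SNF chromatin remodelling, fell by 0.38, Inppl1, an inositol phosphatase, by 0.35, Taf6, a subunit of TFIID, by 0.41, and Lsm4, an RNA-binding protein of splicing, by 0.45. Thap3, Rgs9 and Bhmt fell by 0.28, 0.29 and 0.36.

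Beside 5.13% shared of all symbols, 3 of 8 regulators of G-protein signalling (37.5%) were shared, 2 higher (Rgs18 and Rgs10) and 1 lower (Rgs9). Rgs10 differed between cohorts, with 1.06 in females and 0.11 in males. Without the 4 female controls Rgs10 had −0.11 in females and did not pass over both cohorts (adjusted p = 0.829). Rgs9 was dim, detected on 5 of 6 female and 7 of 8 male controls. In each cohort it was detected on 4 of 8 arrays of minimal and 2 of 8 of extreme response. Of 14 protein kinase A and adrenergic genes, 3 (21.4%) were higher, namely the regulatory subunits Prkar1a (0.41) and Prkar2b (0.74) and the catalytic subunit Prkacb (0.36). Prkar1a had 0.71 in females and 0.16 in males, Prkar2b 0.96 in females and 0.55 in males and Prkacb 0.04 in females and 0.61 in males. Prkacb lost its call when any of 31 single arrays was left out, and Prkar1a (adjusted p = 0.297) and Prkar2b (0.174) did not pass without the 4 female controls. Of 14 glycolysis enzymes 2 (14.3%) were higher, Gapdh (0.53) and Ldha (0.46), and Gapdh had 1.15 in females and 0.02 in males. Gapdh (adjusted p = 0.739) and Ldha (0.138) did not pass without the 4 female controls. Of 10 heat shock genes 1 was higher, Cacybp (0.74), with 0.08 in females and 1.28 in males.

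Beside 2.05% lower of all symbols, the lists of respiration and protein synthesis had few lower members and 0 higher ones. Of 53 oxidative phosphorylation subunits, 4 (7.55%) were lower, which were Cox7b (−0.47) of complex IV and Ndufa6 (−0.41), Ndufv1 (−0.30) and Ndufs7 (−0.30) of complex I. Ndufv1 and Ndufs7 had female differences of −0.12 and −0.03, and male ones of −0.44 and −0.52, and Ndufv1 lost its call on 9 and Ndufs7 on 15 single omissions. Of 58 cytosolic ribosomal proteins 2 (3.45%) were lower, Rps15 (−0.25) and Rpl39 (−0.34), and of 52 mitochondrial ribosomal proteins 2 (3.85%) were lower, Mrpl54 and Mrps11 (−0.36). With the signal-free array added, Rps15 had 0.28 and Ndufs7 0.04, so neither kept its direction.

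The glucocorticoid-induced list had 0 shared members of 15. Its medians were −0.47 in females and 0.46 in males, with the same sign in both for 2 of 15. Without the 4 female controls the list's female median was 0.02, so the negative female median rested on those arrays. Fkbp5, a cochaperone of the glucocorticoid receptor, differed by 0.01 over both cohorts (adjusted p = 0.989), Tsc22d3 (leucine zipper protein Gilz) by 0.21 (adjusted p = 0.301), and the kinase gene Sgk1 by −0.03 (adjusted p = 0.917). Interferon-stimulated genes (18 tested), MHC class II genes (9), proteasome subunits (33), translation factors (40), clock genes (5), heme synthesis enzymes (7) and inflammation genes (9) had 0 shared members each. The 9 skeletal muscle genes also had 0, with medians of 1.22 in females and −0.94 in males. Their summed level was 19077 in male control replicate 2 and 471 to 1428 in the other male controls. The group medians were 1263 in male controls, 618 at minimal and 553 at extreme response. How far the male value rests on replicate 2 was not tested. Of the 34 lists, 18 had no shared member.

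**Figure D4:**
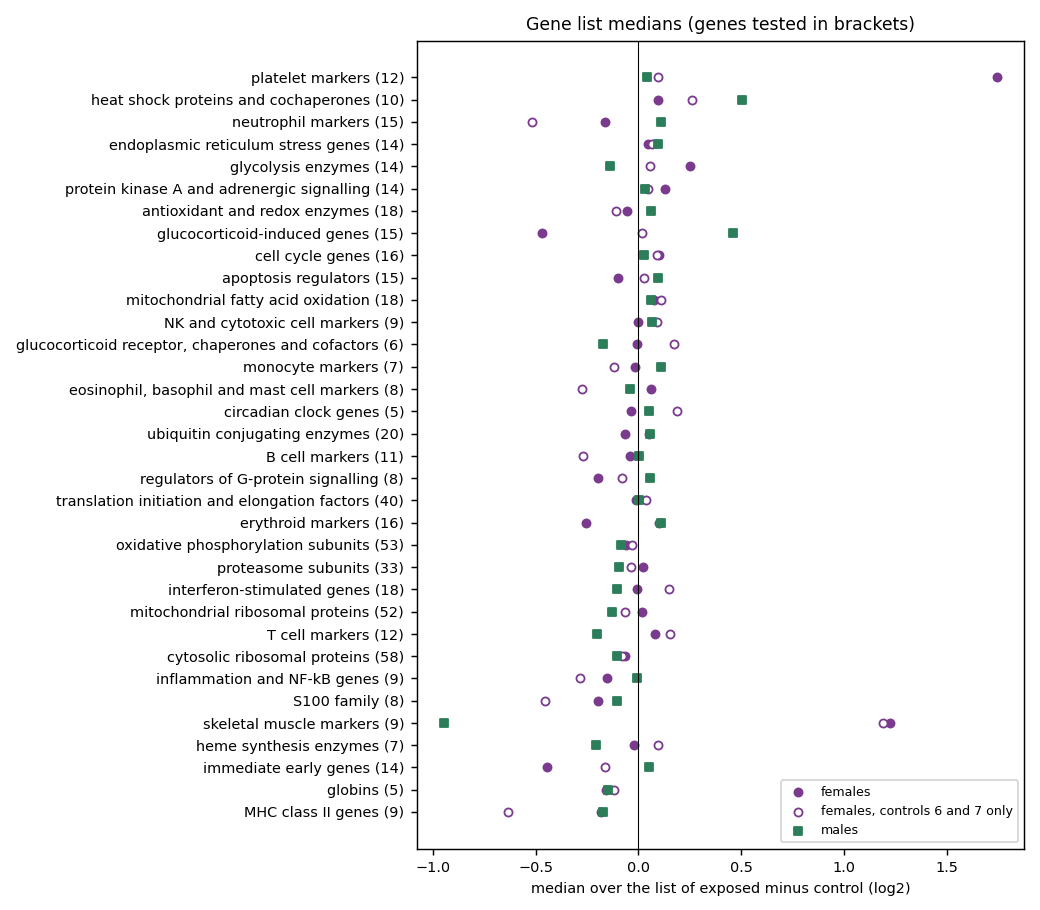
Median over each gene list of the exposed minus control difference (log2) in females (filled circles), females with control replicates 6 and 7 only (open circles) and males (squares), ordered by the median over both cohorts, with the number of genes tested in brackets. Platelet markers have the highest median in females (1.74) and lie at 0.04 in males, and skeletal muscle markers lie at 1.22 and −0.94.

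Response classes were compared with the same controls, so their values stand side by side only. The shared probes were chosen by exposed minus control differences on these same arrays. Shares passing above those of all probes therefore follow from that choice. Of the 283 shared higher probes, 249 passed at minimal response (4.90% of all probes did, in the higher direction) and 51 at extreme response (0.712%). Of the 165 shared lower probes, 113 passed at minimal response (2.60%) and 41 at extreme response (0.712%). The median difference of the shared higher probes was 0.59 at minimal and 0.39 at extreme response, and that of the shared lower probes −0.39 and −0.37.

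The size of the direct difference of the classes does not use the controls. Its p-values do, because the spread was estimated over all arrays, controls included. Extreme minus minimal response passed for 15 of the 283 shared higher probes (5.30%), all lower at extreme response, and for 2 of the 165 shared lower probes (1.21%), beside 1.06% of all probes. The named genes among them were Sod2 (−0.98, adjusted p = 0.0393), Nck2 (−0.88, 0.037), Tpm4 (−0.76, 0.0349), F2rl2 (−1.09, 0.0228), Sav1 (−0.82, 0.0106), Rtn4 (−0.75, 0.0281) and Leprot (−0.54, 0.0489). Rgs18 differed by −0.70 (adjusted p = 0.112) and S100a6 by 0.07 (adjusted p = 0.889), which did not pass.

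**Figure D5:**
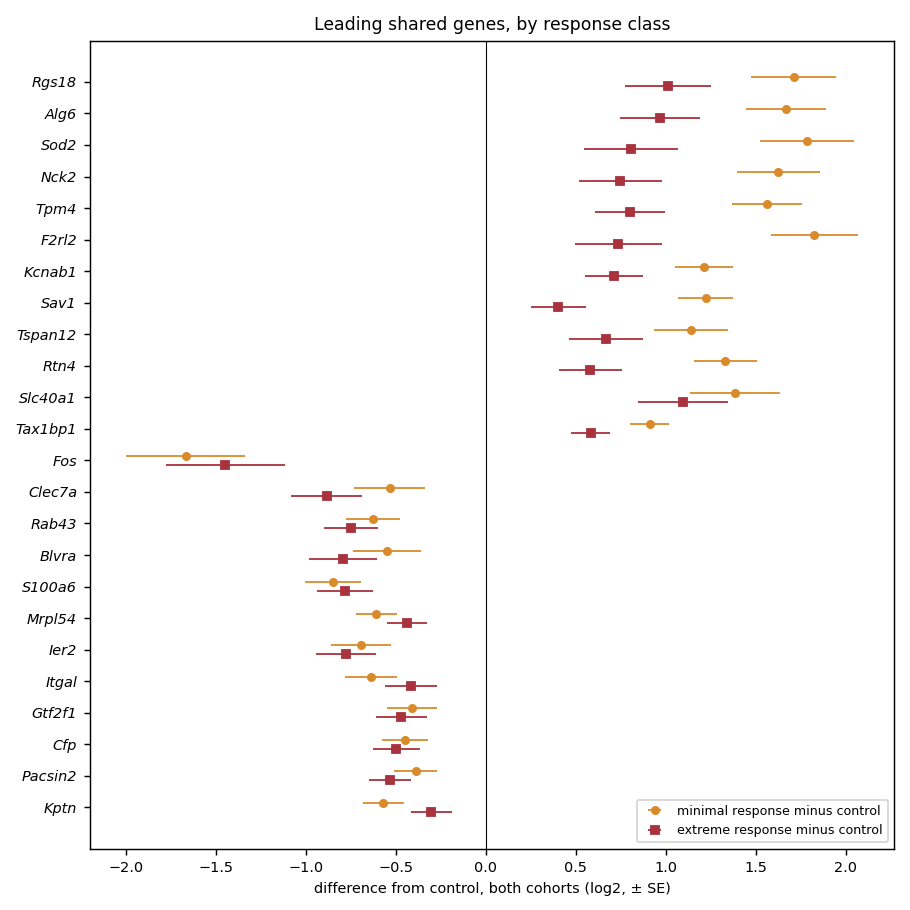
Minimal response (circles) and extreme response (squares) minus control, with the cohort as a block, for the 24 leading genes (log2, bars are SE). The higher genes have larger values at minimal response (Rgs18 1.71 and 1.01), and the values of the lower genes lie closer together (S100a6 −0.85 and −0.78).

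Across single arrays, the median of the 99 stricter higher probes, taken relative to the mean of the cohort's controls, was 0.52 to 0.91 at minimal and 0.28 to 0.76 at extreme response in females, and −0.34 to 0.50 in female controls. The female controls at the top were replicates 6 and 7, at 0.50 and 0.47. In males it was 0.47 to 0.89 at minimal response, −0.24 to 0.71 at extreme response and −0.18 to 0.33 in controls, and extreme response replicates 2 and 8 had −0.24 and −0.03. For the 65 stricter lower probes, all 16 exposed females lay between −0.52 and −0.28 and all 6 female controls between −0.03 and 0.10. The males had −0.54 to −0.28 at minimal response, −0.73 to −0.11 at extreme response and −0.13 to 0.09 in controls. The probes were chosen on these arrays, so the values are a description.

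Few members separated the groups rat by rat. The stricter probes were chosen by exposed minus control differences on these same arrays, so shares above those of all probes follow from that choice. Of the 99 stricter higher probes, 21 had every male of minimal response above every male control (1.37% of all probes did) and 13 had this in females (0.563%). For males of extreme response the count was 0 (0.0319%). Of the 65 stricter lower probes, 3 had every male of minimal response below every male control (0.743%), and 3 had every female of extreme response below every female control (0.382%). Nearest to the threshold, Fermt3 was the last probe with a symbol inside it (0.39, adjusted p = 0.04997) and Rps20 the nearest outside it (−0.32, adjusted p = 0.0501).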

How the data were processed

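Whole blood RNA was measured on 47 Illumina rat bead arrays, each labelled with 1 rat. Per the labels' protocols, blood was collected in PAXgene tubes, globin mRNA was reduced with GLOBINclear and biotinylated cRNA was made with the TotalPrep kit. Per the file headers, non-normalized intensities and detection p-values of each probe were deposited by the authors. A deposited table of log2 values covered 46 arrays. These differed by at most 5e-09 from log2 intensities that were quantile normalized with no background step, with column medians of 6.59, so their scale and centring are known. Scanner software and chip positions were not given in the sources used here.

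Intensities were background corrected by normexp, whose negative controls were estimated through detection p-values (nec of limma 3.58.1, R 4.3.3, offset 16), quantile normalized over 46 arrays and put on the log2 scale. This offset shrinks differences of dim probes. A probe was tested when detected (p below 0.05) on at least 7 arrays, which left 9416, of which 6786 carried a symbol. Of all 22523 probes, 13793 carried 1 symbol, 0 several and 8730 none, and 13752 symbols were matched to RefSeq by Entrez identifier. A symbol with several probes was represented by the brightest.

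limma (lmFit, eBayes) fitted cohort and exposure together (43 residual degrees of freedom), and a model of 4 cohort-by-exposure means (42) gave each cohort's difference and the difference between cohorts. Another model had response class in place of exposure. Two-sided p-values were adjusted by Benjamini-Hochberg over all tested probes, and differences are given ± SE. Each label names 1 rat, but 6 male rat numbers stand on 2 arrays each, 1 exposed and 1 control, and the labels do not say whether these are the same animals. The p-values treat all arrays as separate animals. The highest correlation between any pair of arrays was 0.986.

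Named genes were the 12 higher and 12 lower of the stricter tier with the largest smaller cohort difference, up to 4 members of each list by smallest p, and Fkbp5, Tsc22d3 and Sgk1. Genes passing in each cohort, those kept without 4 female controls, Junb, Egr1, Gp5, Alox12 and P2ry12 were added after their values were seen. Members, lists and the 4 set-aside arrays were chosen with earlier results of these data known. The scripts were tested on simulated data. Alternatives were 15 settings, 2 of them on the repeated rat numbers added after seeing the data, and leaving out each array. Replicate numbers were checked for pairing: of 44 same-numbered pairs, 7 had deviations correlated above 0.1 (range −0.53 to 0.33, median −0.02), so the replicate numbers were not taken to pair rats. Of the 6 repeated rat numbers, 1 pair was above 0.1 (range −0.53 to 0.18, median −0.07), beside a median of 0.01 over the 122 other exposed and control male pairs. The rat number as a random block had a consensus correlation of −0.19.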

Additional observations from a re-analysis of the deposited data

Results flagged for a closer look

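Over 66 genes named above and 6 groups each, 396 sets of 6 or 8 arrays were looked at for a single array far from the rest by Dixon's gap ratio, and 19 had one. Chance gives about 1 in 20 sets. Low single arrays, as log2 intensity with the nearest other array of the group, were Bhmt in female control replicate 5 (5.06, nearest 5.55), Blvra in male minimal response replicate 2 (7.65, nearest 8.75), Clec7a in female minimal response replicate 5 (5.88, nearest 6.60), Ier2 in female minimal response replicate 7 (4.88, nearest 5.38), Ier2 in male extreme response replicate 6 (4.67, nearest 5.84), Inppl1 in female control replicate 1 (6.25, nearest 6.91) and Kcnab1 in female extreme response replicate 1 (5.06, nearest 5.92). Further low ones were Mrps11 in female control replicate 4 (5.17, nearest 6.05), Ndufs7 in female control replicate 1 (8.47, nearest 9.06), Rgs9 in female extreme response replicate 2 (4.53, nearest 4.81), Rpl39 in female minimal response replicate 2 (10.05, nearest 10.84), Smarca4 in male extreme response replicate 6 (4.78, nearest 5.29) and Tpm4 in female minimal response replicate 6 (9.60, nearest 9.98). High single arrays were Bicd2 in female extreme response replicate 3 (8.53, nearest 8.17), Cfp in male minimal response replicate 5 (9.25, nearest 8.80), Kptn in female minimal response replicate 7 (7.89, nearest 7.17), Ndufv1 in female minimal response replicate 7 (7.65, nearest 7.23), Rgs9 in female minimal response replicate 7 (5.34, nearest 4.95) and Snx5 in female control replicate 1 (7.49, nearest 6.83).

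The exposure effect differed between the cohorts, by the limma test of the difference, for 8 of these 66 genes although both cohorts had the same sign. Gp5, Alox12 and P2ry12, whose unlike cohort differences are given above, were not among the 66. Female minus male differences (log2) were Slc40a1 (1.27), Fos (−1.89), Cacybp (−1.20), Rgs10 (0.95), Ndufs7 (0.49), Gapdh (1.13), Prkar1a (0.55) and Slc6a4 (2.13). No cause was tested.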

How the results depend on the processing

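Precision is limited by how many arrays each group has, and dim probes are limited by signal over background. Counts below are of shared probes (283 higher, 165 lower), of the stricter tier (99 higher, 65 lower), of probes whose cohorts differed (975) and of probes passing in each cohort the same way (26). Scaling to the 75th percentile gave 43 lower, 22 stricter lower, 425 differing between cohorts and 8 passing in each. Adding the signal-free array gave 34, 14, 538 and 5. Without female controls 1, 3, 4 and 5 there were 276 lower, 13 stricter higher, 0 differing between cohorts (limma, with 874 at an unadjusted p under 0.05) and 0 in each cohort (78 unadjusted). Array weights gave 331 lower, 521 differing and 13 in each. Cell marker levels as covariates gave 25 stricter higher, 28 stricter lower, 208 differing and 0 in each (79 unadjusted), and no detection filter gave 171 higher, 95 lower, 636 differing and 11 in each. Chosen after seeing the data, leaving out the 6 exposed males whose rat number also labels a control gave 172 higher, 59 lower, 61 and 30 in the stricter tier, 497 differing and 0 in each (115 unadjusted). The causes were not tested, beyond fewer arrays in that setting. All other counts under the remaining settings stayed within 1.5 times. A like count need not mean the same members. With cell marker levels as covariates, 67 of the 283 higher and 81 of the 165 lower probes were kept. Scaling to the 75th percentile kept 193 and 23, array weights 233 and 148, and the replicate block 193 and 111. The authors' deposited values kept 260 and 157. With the replicate block, which the check of replicate numbers does not support, there were 200 higher and 120 lower shared probes, 87 and 48 in the stricter tier, 759 differing and 22 in each. Leaving out 1 array gave 208 to 357 higher, 112 to 236 lower, 81 to 120 and 50 to 84 in the stricter tier, 665 to 1216 differing, and 13 (without female control 3) to 47 (without male extreme response 2) in each. Of 990 gene results under 15 settings, 834 kept direction and call, 151 kept direction only and 5 turned: Rgs10 (−0.063), Gapdh (−0.0054) and Slc6a4 (−0.075) with cell marker levels, and Rps15 (0.28) and Ndufs7 (0.035) with all 47 arrays. Slc6a4 is itself in the platelet list among those cell marker levels, so part of its change follows from that setting. No leading gene lost its call when any 1 array was left out, but Prkacb did on 31 of 46 omissions, Ndufs7 on 15, Ndufv1 on 9, Rpl39 on 7, Rgs10 and Mrps11 on 5, and 7 other genes on 1 to 3.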
